A study of Mus musculus with 29 samples.

Results

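The interleukin receptor genes of lymphoid progenitors were examined as a list of 10 genes: *Il7r*, *Il2rg*, *Il2rb*, *Il4ra*, *Il21r*, *Crlf2*, *Il6st*, *Ifngr1*, *Il18r1* and *Il18rap*. Each was found by its symbol as 1 entry of every table, which makes 10 of the 24732 entries of the mm9 tables and 10 of the 25588 entries of the mm10 tables. RNA-seq was performed on polyA RNA of sorted cells from C57BL/6 mice, and the values are TPM, a transcript level scaled to transcript length and to a constant sum per library. The mm9 tables hold 3 wild-type and 2 Pax5(-/-) pro-B cell libraries, and the mm10 tables hold 3 Pax5(+/+) Meox2-cre pro-B cell libraries, which carry Cre in the ubiquitously active *Meox2* locus and served as controls in the study of the leukemia fusion Pax5-Jak2. The Meox2-cre libraries were made from pooled cells of 3-week-old mice according to the labels and the methods, and the sample table of the study gives them 1 *Pax5* allele less than the labels do. The labels give neither the age nor the number of mice for the wild-type and Pax5-/- libraries, so the p-values below measure the spread between libraries, which may be technical.

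Cytokine receptors of the class I and class II families have no kinase of their own. They assemble from a ligand-binding chain and a shared or signaling chain, and the JAK kinases attached to these chains phosphorylate STAT factors. The receptor for IL-7, made of IL-7Rα (*Il7r*) and the common γ chain (*Il2rg*), carries the main growth and survival signal of mouse pro-B cells, and IL-7Rα also pairs with the TSLP receptor chain (*Crlf2*). The IL-18 receptor belongs to the interleukin-1 receptor family instead and signals through Myd88 and the Irak kinases. It is best known from natural killer and T cells.

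The Pax5-/- cells were gated differently from the wild-type cells. According to the methods, both gates took B220+Kit+ cells, but the gate for pro-B cells also required the absence of CD2, IgM and IgD, and that for Pax5-deficient progenitors the presence of Ly6D, among other markers, so gate and genotype cannot be told apart. *Pax5* itself was at 342 to 391 TPM in the wild-type libraries, compared with 43 and 39.1 TPM in the Pax5-/- libraries, with *Ly6d* at 190 to 270 against 2260 and 3030 TPM, and *Cd2* at 1.11 to 2.14 against 0 and 0.215 TPM. *Kit* and *Ptprc*, which encodes B220, were at 23.1 to 35.3 and 59.3 to 70 TPM in the wild-type libraries and at 34.6 to 39.8 and 72.1 to 74 TPM in the Pax5-/- libraries. The depth in reads is unknown, since TPM do not keep it. The fit with limma on log2(TPM + 0.5) tested the 12066 genes whose mean exceeded 1 TPM in the wild-type or the Pax5-/- libraries, and their median log2 fold change of Pax5-/- against wild-type was -0.12. It moved to -0.01 when the libraries were rescaled by median ratios, and the changes given below should be read against that shift.

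All 10 receptor genes passed the filter on low values. At an adjusted p-value below 0.05, 6 of 10 rose in Pax5-/- cells (*Il18rap*, *Il18r1*, *Ifngr1*, *Il6st*, *Il2rg* and *Il4ra*), where 15.6% of all genes tested were called higher. None fell at that threshold or at an unadjusted p-value below 0.05 in limma (0 of 10), where 21.5% of all genes tested were called lower. The median log2 fold change of the 10 genes was 0.67. By the thresholds of the study (adjusted p-value below 0.05, more than 3-fold, mean above 5 TPM in a genotype), *Il18rap* and *Il18r1* were called higher, against 3.35% of the 9765 genes that could be called, and 0 of 10 were called lower, against 3.89%. *Il2rb*, with means of 0.764 TPM in wild-type and 1.41 TPM in Pax5-/- libraries, could not be called by these thresholds. In 8 of 10 genes, both Pax5-/- libraries lay above all 3 wild-type libraries, which was the case for 26.1% of the genes tested, and in 0 of 10 they lay below, against 37.4%. Fewer cells of a type and less RNA per cell cannot be told apart in these bulk libraries.

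**Figure D1:**
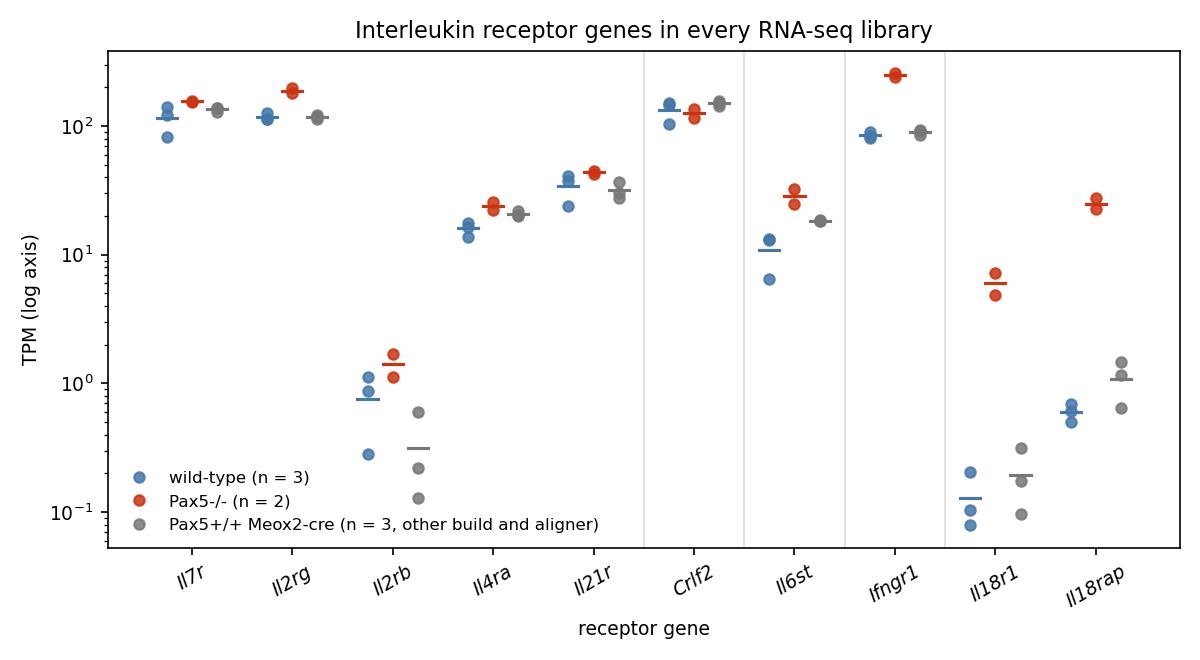
TPM (log axis) of the 10 receptor genes in every library, with points for single libraries and a bar for the mean of each group. *Il18r1* and *Il18rap* lie near or below 1 TPM in the wild-type and Meox2-cre libraries and between 4.86 and 27.4 TPM in the Pax5-/- libraries; the Meox2-cre tables were made with another build and aligner, and no test crosses the tables.

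In wild-type pro-B cells, the receptors fell into levels that span more than 3 orders of magnitude on the TPM scale. *Crlf2*, *Il2rg*, *Il7r* and *Ifngr1* were the most abundant, and the ranges of neighbors in this order overlapped. *Il21r*, *Il4ra* and *Il6st* followed with ranges that did not overlap, then *Il2rb* and *Il18rap*, whose ranges overlapped, and *Il18r1*. In Pax5-/- cells, *Ifngr1* took the first place, followed by *Il2rg*, *Il7r*, *Crlf2* and *Il21r* with ranges that did not overlap. *Il6st*, *Il18rap* and *Il4ra* formed an overlapping series between 22.2 and 32.6 TPM, and *Il18r1* stood above *Il2rb*. The 10 genes together summed to 473.1, 549.2 and 517.4 TPM in the wild-type libraries and to 819.5 and 878.4 TPM in the Pax5-/- libraries. *Ifngr1* made up 14.7 to 17.7% of this sum in wild-type and 29.3 to 29.5% in Pax5-/- libraries, whereas *Crlf2* made up 20.1 to 31.1% and 14.2 to 15.4%, respectively.

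The common γ chain family comprises *Il2rg* and the chains that pair with it in the receptors for IL-7, IL-2, IL-15, IL-4 and IL-21. Together with *Il6st*, these genes carry the codons of the Trp-Ser-X-Trp-Ser signature that lies close to the membrane in class I receptors. The bases below show that signature in the longest coding sequence of each gene (GENCODE on mm9), with the 15 bases of the in-frame pattern (TGGAGN, any codon and TGGAGN again) in capitals and 6 bases on either side in lower case.
Il7r: ggcttcTGGAGCGAGTGGAGTccaagt
Il2rg: caacagTGGAGTAAATGGAGCcagcct
Il2rb: gggaccTGGAGTCCCTGGAGCcagccc
Il4ra: ggcaccTGGAGTGAGTGGAGTcctagc
Il21r: gggaccTGGAGTGAGTGGAGTgacccc
Il6st: ggctacTGGAGTGACTGGAGTgaggag
The pattern was found on the coding strand of 6 of the 10 receptor genes, of 14 of the 50 other cytokine receptor genes searched and of 0.243% of 22594 protein-coding genes. It was not matched in *Crlf2*, *Ifngr1*, *Il18r1* and *Il18rap*. The pattern leaves out serine codons of the form TCN and takes in arginine codons. The lack of a match therefore does not show that the signature is missing, and the shares count the pattern only. The 15 bases were identical in *Il4ra* and *Il21r*. With each of them, *Il7r* and *Il6st* shared 14 of 15, *Il2rg* 12 and *Il2rb* 11, so that *Il6st* was closer to them than *Il2rg* and *Il2rb* were. These stretches lie within single coding exons, namely exon 5 of *Il7r* (mm9 chr15:9440900-9440926, minus strand), exon 5 of *Il2rg* (chrX:98461548-98461574, minus strand), exon 7 of *Il2rb* (chr15:78316187-78316213, minus strand), exon 7 of *Il4ra* (chr7:132715062-132715088, plus strand), exon 6 of *Il21r* (chr7:132772506-132772532, plus strand) and exon 6 of *Il6st* (chr13:113280799-113280825, plus strand).

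*Il7r* (mm9 chromosome 15 from 9435916 to 9459631) was expressed at 81.7, 121 and 141 TPM in the wild-type libraries, compared with 154 and 158 TPM in the Pax5-/- libraries. Both Pax5-/- libraries lay above the wild-type libraries, but the wild-type values spread widely, with a mean of 115 ± 30.1 TPM (SD, n = 3) against 156 ± 2.86 TPM (SD, n = 2). The log2 fold change was 0.48 (standard error 0.21, 95% interval -0.01 to 0.97) and did not pass the test (adjusted p = 0.11, limma; 0.035 to 0.39 over 14 alternatives). It passed without wild-type replicate 3 (log2 fold change 0.65, adjusted p = 0.04) and after rescaling by median ratios (0.59, adjusted p = 0.035), and was 0.26 without wild-type replicate 1.

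*Il2rg* (chromosome X from 98459717 to 98463594), the γ chain to which Jak3 binds, was expressed at 113, 127 and 113 TPM in wild-type and at 181 and 197 TPM in Pax5-/- libraries. The groups did not overlap, and the wild-type libraries differed little from each other (coefficient of variation 6.63%). This 1.61-fold rise (log2 fold change 0.68, standard error 0.10) passed the test at an adjusted p of 0.0022 (limma).

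*Il4ra* and *Il21r* are neighbors on chromosome 7 with 24 kb between them (mm9 chr7:132695785-132722986 and chr7:132746943-132777084, both on the plus strand). *Il4ra*, the chain that binds IL-4, was at 16.5, 17.8 and 13.7 TPM in wild-type and at 22.2 and 25.5 TPM in Pax5-/- libraries. It rose by 0.57 on the log2 scale (standard error 0.17, adjusted p = 0.032, limma), a call that was lost without a filter on low values (adjusted p = 0.052) and without either Pax5-/- library (adjusted p = 0.13 and 0.27). *Il21r*, which binds IL-21, was at 23.9, 37.1 and 40.8 TPM in wild-type and at 42.6 and 45.1 TPM in Pax5-/- libraries. Here the lowest wild-type library stood apart from the other two, and the log2 fold change of 0.40 (95% interval -0.12 to 0.92) did not pass the test (adjusted p = 0.19, limma).

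*Il2rb* (chromosome 15 from 78310983 to 78325496), the β chain of the IL-2 and IL-15 receptors, was low, with 0.282, 0.875 and 1.13 TPM in wild-type and 1.7 and 1.12 TPM in Pax5-/- cells. The groups overlapped, and the change was not detectable at this level (log2 fold change 0.65, 95% interval -0.25 to 1.54, adjusted p = 0.22, limma). The 2 α chains of these receptors were also low, whereas *Il2rg*, their γ chain, was at 113 to 127 TPM in wild-type and at 181 and 197 TPM in Pax5-/- libraries. *Il2ra*, the α chain for IL-2, was at 0.912 to 1.09 TPM in wild-type and at 5.22 and 3.83 TPM in Pax5-/- libraries (log2 fold change 1.71, adjusted p = 0.002, limma), and *Il15ra* was at 1.57 to 3.88 and at 4.32 and 3.65 TPM (log2 fold change 0.49, adjusted p = 0.29). *Il9r*, the IL-9 partner of the γ chain, was not tested, with 0.198 to 2.22 TPM in wild-type and 0.144 and 0 TPM in Pax5-/- libraries.

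*Crlf2* (chromosome 5 from 109983730 to 109988012) encodes the chain that joins IL-7Rα to bind TSLP. It was expressed at 147, 151 and 104 TPM in wild-type and at 116 and 135 TPM in Pax5-/- libraries. The groups overlapped, and the log2 fold change was -0.07 (standard error 0.17, 95% interval -0.48 to 0.33, adjusted p = 0.76, limma), the smallest of the 10 genes. Its sign turned to 0.03 after rescaling by median ratios or quantile normalization.

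*Il6st* (chromosome 13 from 113265216 to 113297068) encodes gp130, the signaling chain shared by the receptors of the IL-6 family. It was expressed at 6.48, 13.3 and 13.1 TPM in wild-type and at 32.6 and 25 TPM in Pax5-/- libraries. All Pax5-/- values exceeded the wild-type values, with means of 11 ± 3.89 TPM (SD, n = 3) in wild-type and 28.8 ± 5.34 TPM (SD, n = 2) after loss of Pax5. The rise amounted to 1.41 on the log2 scale (standard error 0.31, adjusted p = 0.011, limma). The call was lost without either Pax5-/- library (adjusted p = 0.14 and 0.089). *Il6ra*, which binds IL-6, was at 2.23 to 2.61 TPM in wild-type and at 1.99 and 2.6 TPM in Pax5-/- libraries (log2 fold change -0.08, adjusted p = 0.81).

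*Ifngr1* (chromosome 10 from 19311755 to 19330035), the ligand-binding chain of the interferon-γ receptor, was the most uniform of the 10 genes in wild-type cells (coefficient of variation 5.59%). It was expressed at 83.5, 80.5 and 89.8 TPM in wild-type and at 242 and 257 TPM in Pax5-/- libraries. The groups lay far apart, with a 2.94-fold rise (95% interval 2.51 to 3.45, log2 fold change 1.55, standard error 0.10, adjusted p = 4.2e-05, limma). This is just below the 3-fold threshold of the study, which *Ifngr1* passed after rescaling by median ratios or quantile normalization (log2 fold change 1.66 in both), without wild-type replicate 3 and without Pax5-/- replicate 1 (1.60 in both). *Ifngr2*, the second chain of this receptor, was at 69.7 to 94.8 TPM in wild-type and at 85.8 and 89.2 TPM in Pax5-/- libraries (log2 fold change 0.07, adjusted p = 0.72).

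**Figure D2:**
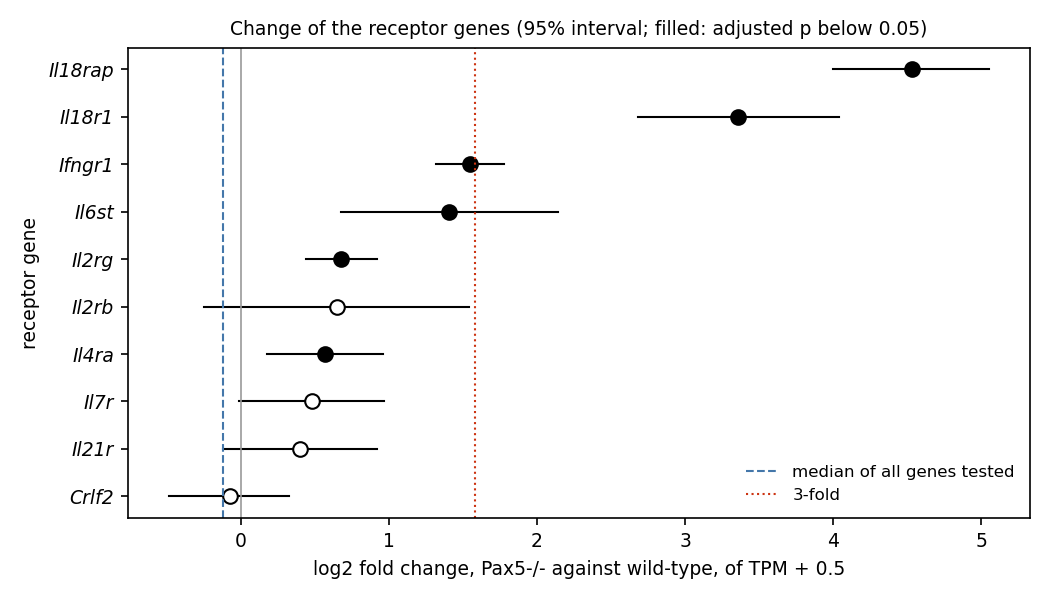
Log2 fold change of Pax5-/- against wild-type for the 10 receptor genes (points, filled where the adjusted p-value is below 0.05), with 95% intervals from limma. The blue line marks the median of all genes tested (-0.12) and the red line 3-fold; *Il18rap* and *Il18r1* lie beyond it with their whole intervals, and *Ifngr1* touches it.

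The IL-18 receptor showed the largest changes of the list. Both chains were below 1 TPM in wild-type pro-B cells, whereas *Il18rap* reached the level of *Il4ra* and *Il6st* in Pax5-/- cells. *Il18r1*, which binds IL-18, was at 0.0794, 0.104 and 0.205 TPM in wild-type and at 4.86 and 7.25 TPM in Pax5-/- libraries. *Il18rap*, the accessory chain needed for signaling, was at 0.612, 0.501 and 0.691 TPM in wild-type and at 22.5 and 27.4 TPM in Pax5-/- libraries. All Pax5-/- values lay above 4 TPM and all wild-type values below 1 TPM. The log2 fold changes on the scale of TPM + 0.5 were 3.36 for *Il18r1* (standard error 0.29, adjusted p = 0.00018, limma) and 4.53 for *Il18rap* (standard error 0.22, adjusted p = 1.5e-05), the 63rd and 21st highest of the 12066 genes tested. Without a pseudocount, the ratio of mean TPM was 46.8 for *Il18r1* and 41.5 for *Il18rap*. With a pseudocount of 0.1 TPM, the log2 fold changes were 4.76 and 5.16, so that the distance between the 2 genes depends on the pseudocount.

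*Il18r1* and *Il18rap* lie in the same direction on chromosome 1 (mm9 chr1:40522397-40557699 and chr1:40572207-40608550, plus strand), with 14.5 kb between them, at the end of a cluster of interleukin-1 receptor genes. The genes within 400 kb were looked up after the values of both genes had been seen. *Il1r2*, a decoy receptor for IL-1 that starts at -380.8 kb from *Il18r1*, rose from 0.0911 to 0.377 TPM in wild-type to 1.65 and 2.93 TPM in Pax5-/- libraries (log2 fold change 1.94, adjusted p = 0.0042, limma). *Il1r1*, the signaling receptor for IL-1, fell from 0.88 to 1.36 TPM to 0.353 and 0.13 TPM (log2 fold change -1.14, adjusted p = 0.024), a call that was lost with quantile normalization. *Il1rl2* did not pass the test (log2 fold change 0.25, adjusted p = 0.55), and *Il1rl1*, the IL-33 receptor whose start is at -36 kb from *Il18r1*, was too low to be tested, with at most 0.72 TPM in wild-type and 0.129 TPM in Pax5-/- libraries. On the other side, *Slc9a4* was listed at 0 in all 5 libraries. The genes nearest to the IL-18 receptor genes on either side thus stayed below 1 TPM in all 5 libraries.

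**Figure D3:**
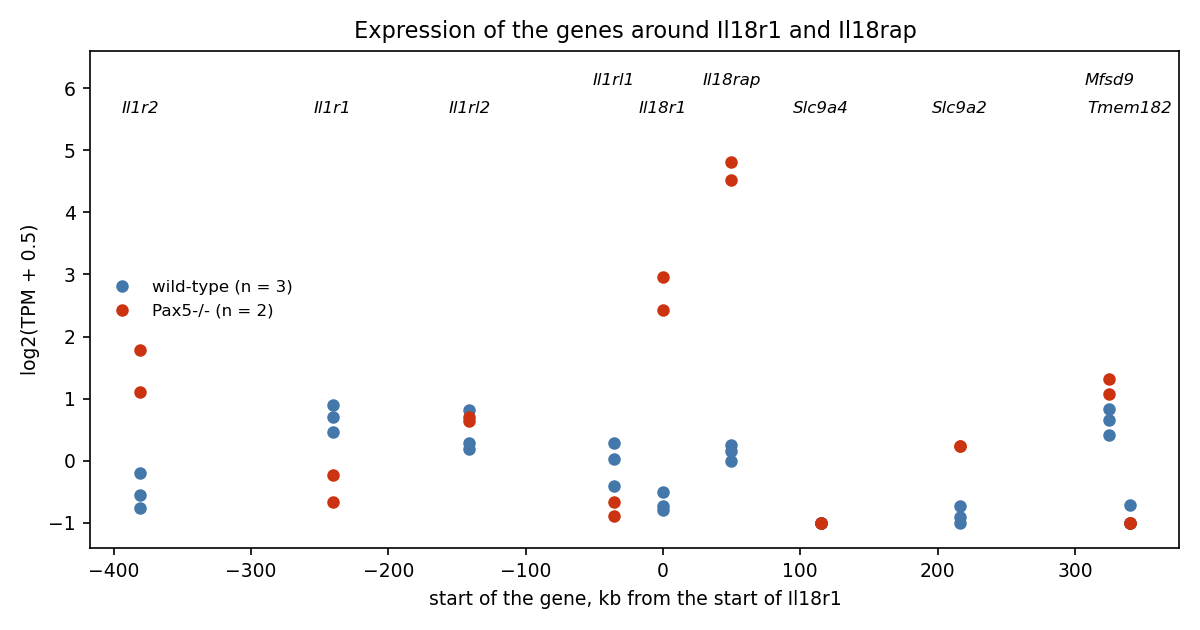
Expression as log2(TPM + 0.5) of the genes around *Il18r1* and *Il18rap* in the 3 wild-type and 2 Pax5-/- libraries, plotted by the distance of each gene start from that of *Il18r1* in kb. The Pax5-/- points stand far above the wild-type points at *Il18r1* and *Il18rap*, whereas *Il1rl1* and *Slc9a4* next to them stayed below 1 TPM in every library.

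The promoters of these 2 genes are shown because the genes changed together. They span 250 bases before to 50 bases after the start of transcription and are taken from RefSeq (GRCm38.p6), for *Il18r1* from the most upstream of 3 starts. Matches on either strand to TTCNNNGAA (the site of STAT factors), TGTGGT (Runx factors) and GGAAGT (ETS factors) are in capitals, and no match overlapped one to another motif.
Il18r1, chr1:40465302-40465601, plus strand: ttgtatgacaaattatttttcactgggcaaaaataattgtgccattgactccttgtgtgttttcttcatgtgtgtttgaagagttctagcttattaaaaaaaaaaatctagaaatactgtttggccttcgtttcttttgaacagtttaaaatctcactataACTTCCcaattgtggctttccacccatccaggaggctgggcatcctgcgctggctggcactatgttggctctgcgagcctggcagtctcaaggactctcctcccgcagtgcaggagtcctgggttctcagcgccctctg
Il18rap, chr1:40515112-40515411, plus strand: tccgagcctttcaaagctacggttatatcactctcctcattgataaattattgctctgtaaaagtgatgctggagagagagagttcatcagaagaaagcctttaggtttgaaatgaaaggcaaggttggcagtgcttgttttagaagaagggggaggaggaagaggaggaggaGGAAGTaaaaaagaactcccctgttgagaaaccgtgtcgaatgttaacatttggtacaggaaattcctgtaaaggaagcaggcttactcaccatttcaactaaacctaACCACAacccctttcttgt
Counted from the start as 0, GGAAGT was matched at -89 in *Il18r1* and at -77 in *Il18rap*, and TGTGGT at 31 in *Il18rap*. The other starts of *Il18r1* gave further matches. The window of the start 69 bases downstream held TGTGGT at 21. Its GGAAGT at -158 is the same site as that at -89 from the first start. The window of the start 454 bases downstream held TTCNNNGAA at -219 and -152. Among 27025 promoters of this length, 24.1% hold GGAAGT, 16.9% TGTGGT and 8.42% TTCNNNGAA. Of the 10 receptor genes, 9 were found in that table.

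Markers of natural killer and innate lymphoid cells were examined beside the IL-18 receptor. Their 17 genes summed to 14.1 to 28.7 TPM in the wild-type and to 50.9 and 75.2 TPM in the Pax5-/- libraries, and of 6 tested, 3 were higher (*Id2*, *Nkg7* and *Gzma*) and 2 lower (*Prf1* and *Klrb1c*). The remaining tested gene, *Cd7*, did not pass (log2 fold change 1.69, adjusted p = 0.21, limma). It was at 0.57 TPM in Pax5-/- replicate 1 and at 16.3 TPM in replicate 2, where the sum was higher. *Id2*, an inhibitor of E proteins, was at 26.3 and 26.1 TPM, and *Nkg7*, a granule protein gene, at 17.9 and 22.7 TPM in Pax5-/- libraries. *Prf1*, which encodes perforin, went from 5.05, 5.26 and 3.75 TPM in wild-type to 0.361 and 1.92 TPM (log2 fold change -1.84), and the receptor gene *Klrb1c* from 2.02, 8.78 and 6.04 TPM to 1.07 and 1.25 TPM (-1.69). The receptor gene *Ncr1* and the granzyme gene *Gzmb* were listed at 0 in both Pax5-/- libraries, and *Tbx21* and *Eomes*, which encode the T-box factors of natural killer cells, were at most at 0.058 and 0.0797 TPM. The 10 T cell markers summed to 1.4 to 2.97 TPM in wild-type and 15.3 and 19.5 TPM in Pax5-/- libraries, mostly through *Cd247* (10.6 and 12.3 TPM, an entry marked as overlapping another gene) and *Cd4* (3.97 and 5.88 TPM), with *Cd3e*, *Cd8b1* and *Themis* at 0. The part of such cells in the values of the receptor genes was not tested.

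Other marker lists moved in both directions. The myeloid list summed to 55.3, 279 and 216 TPM in the wild-type libraries 1, 2 and 3 and to 80.4 and 121 TPM in the Pax5-/- libraries, with *Mpo* and *Lyz2* highest in the latter. Of its 11 tested genes, 2 were higher (*Fcgr3* and *Ctsg*) and 2 lower (*Elane* and *Itgam*). The other 7, with *Mpo* and *Lyz2* among them, did not pass. In the wild-type libraries 1, 2 and 3, *S100a8* was at 2.26, 58.3 and 38.4 TPM and *S100a9* at 4.35, 84.1 and 52.3 TPM. Wild-type replicate 1 had the lowest wild-type sum of the myeloid list. The same held for the T cell, the natural killer and innate lymphoid, and the erythroid lists. This library also had the lowest wild-type values of *Il7r*, *Il2rb*, *Il21r*, *Il18r1* and *Il6st*, and the log2 fold change of *Il6st* without it was 1.08. The plasmacytoid dendritic cell list was at 589 to 669 TPM in wild-type and 269 and 343 TPM in Pax5-/- libraries. This sum is largely *Spib*, which B cells also express and which was lower (log2 fold change -1.82), and *Bst2*, which did not pass the test (0.46). Of the other markers on this list, *Siglech* (2.20; 0.106 to 1.12 TPM against 1.79 and 9.06 TPM) and *Pacsin1* (1.92; 1.38 to 2.66 TPM against 7.41 and 8.86 TPM) were higher, and the median of the 4 tested genes was 1.19. The erythroid list was at 73.5 to 186 TPM and at 59.6 and 8 TPM, largely *Alas2* and *Klf1*. Of the 10 B lineage markers, 8 were lower and 0 higher in Pax5-/- cells, and of the 4 markers of the progenitor gate, *Ly6d* and *Flt3* were higher. The part of these cells in the receptor values was not tested.

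To see whether partner chains kept their proportion, the ratio of 9 pairs was computed in each library with 0.5 TPM added to both chains, and compared by a two-sided exact permutation test of log2 ratios, which cannot give a p-value below 0.1 with 3 against 2 libraries. *Ifngr1* to *Ifngr2* was close to parity in wild-type (1.2, 0.925 and 0.948) and 2.81 and 2.87 in Pax5-/- libraries. *Il6st* to *Il6ra* was 2.24, 5.06 and 4.56 against 13.3 and 8.24. In both pairs the groups did not overlap with any of the pseudocounts tried (0, 0.1, 0.5 and 1 TPM), and the exact permutation p-value was 0.1, or 0.3 adjusted over the 9 pairs. *Il18rap* to *Il18r1* was 1.92, 1.66 and 1.69 against 4.29 and 3.59 (exact permutation p = 0.1), but this gap depended on the added 0.5 TPM. Without a pseudocount, an alternative chosen after seeing the data, the ratio was 7.71, 4.82 and 3.37 in wild-type and 4.63 and 3.77 in Pax5-/- libraries, so that the groups overlapped and the change of the log2 ratio turned from 1.16 to -0.26.

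The ratios of the γ family chains to *Il2rg* overlapped between the groups, in a design that cannot reach significance. *Il7r* to *Il2rg* was 0.722, 0.958 and 1.25 in wild-type and 0.853 and 0.804 in Pax5-/- libraries (exact permutation p = 0.6, change of the log2 ratio -0.20, and -0.40 to -0.01 without single libraries). *Il4ra* to *Il2rg* was 0.125 to 0.149 against 0.125 and 0.132, and *Il21r* to *Il2rg* was 0.214 to 0.365 against 0.237 and 0.231 (exact permutation p = 0.4 for each). *Il2rb* to *Il2rg* was between 0.00687 and 0.0144 in all 5 libraries (exact permutation p = 1). *Crlf2* to *Il7r*, the pair that binds TSLP, was 1.79, 1.24 and 0.741 in wild-type and 0.754 and 0.854 in Pax5-/- libraries (exact permutation p = 0.4), so that the wild-type libraries varied more among themselves than the Pax5-/- libraries. *Il4ra* to *Il13ra1*, its partner for IL-13 in other cells, was 21.3 to 32.3 against 39.1 and 38.4 (exact permutation p = 0.2). These groups did not overlap, but they did without a pseudocount (82.3 to 265 against 276 and 143), with *Il13ra1* below 0.2 TPM in all 5 libraries.

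**Figure D4:**
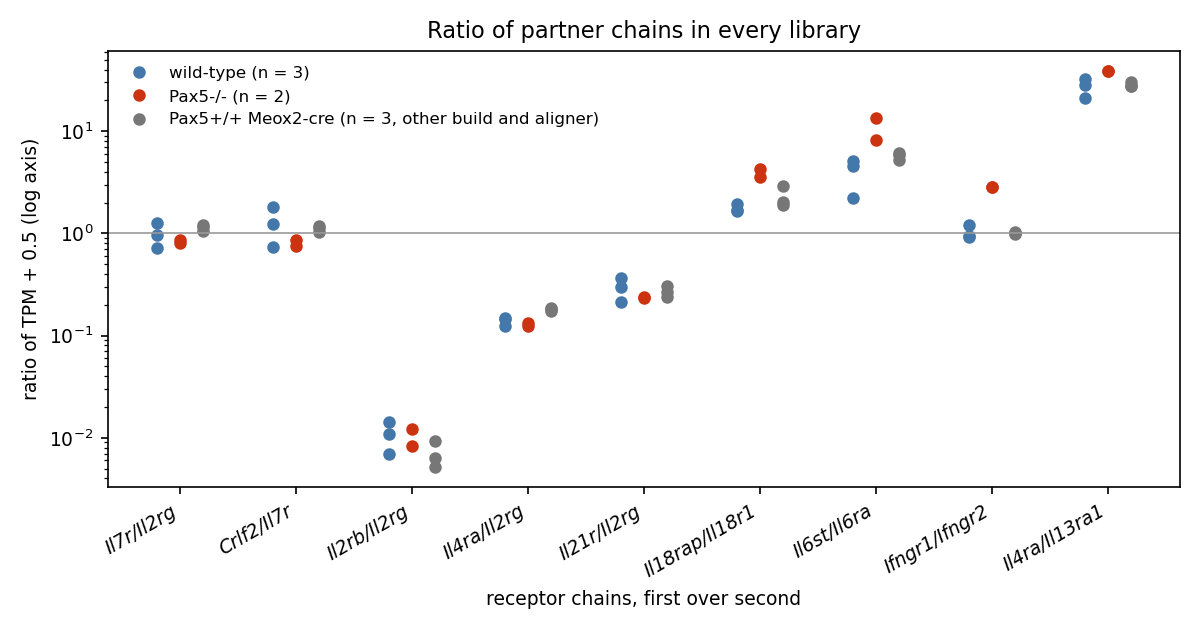
Ratio of partner chains (TPM + 0.5 of the first over the second, log axis) in each library, with 1 marked by a line. The Pax5-/- points lie apart from the wild-type points for *Il6st*/*Il6ra* and *Ifngr1*/*Ifngr2*, and also for *Il18rap*/*Il18r1* and *Il4ra*/*Il13ra1*, whose groups overlap without the added 0.5 TPM; they overlap with the wild-type points for the other pairs.

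The Meox2-cre libraries gave the levels of the 10 genes in control pro-B cells of young mice. *Crlf2* (150 ± 6.33 TPM, SD, n = 3), *Il7r* (134 ± 5.59 TPM), *Il2rg* (118 ± 3.83 TPM) and *Ifngr1* (90.2 ± 3.95 TPM) were again the most abundant, here with ranges that did not overlap. They were followed by *Il21r* (31.6 ± 4.85 TPM), *Il4ra* (20.8 ± 1.04 TPM) and *Il6st* (18.4 ± 0.128 TPM). *Il18rap* was at 1.46, 1.16 and 0.64 TPM, *Il2rb* at 0.221, 0.6 and 0.129 TPM and *Il18r1* at 0.174, 0.314 and 0.0969 TPM. The coefficient of variation was smaller than in the wild-type libraries for 7 of 10 genes, among them *Il7r* (4.16% against 26.3%), *Crlf2* (4.22% against 19.3%) and *Il6st* (0.697% against 35.5%). It was larger for the 3 lowest genes, *Il18rap* (38.3% against 15.9%), *Il2rb* (78.8% against 57.2%) and *Il18r1* (56.4% against 51.3%). Because build, aligner, annotation, pooling and age differ between the tables or are not given for both, the levels stand side by side and were not tested.

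Other cytokine receptor genes changed in both directions, with more of them higher. Of 51 other interleukin and cytokine receptor genes, 49 were found and 30 tested, with a median log2 fold change of 0.33. Of these 30, 13 were higher and 5 lower in Pax5-/- cells. Among all genes tested, 15.6% were called higher and 21.5% lower, and the counts of the other lists are to be read beside the same shares. *Il31ra*, a chain of the IL-31 receptor (2.96), *Ebi3*, a subunit of IL-27 and IL-35 (2.39, an entry marked as overlapping another gene), and *Il1r2* (1.94) rose (log2 fold changes, limma). The erythropoietin receptor *Epor* (-2.08), the secreted IL-18 inhibitor *Il18bp* (-1.90), *Il5ra* (-1.33) and *Il1r1* (-1.14) fell, of which *Il5ra* and *Il1r1* did not pass after quantile normalization. *Il18bp* went from 2.62, 3.63 and 5.85 TPM in wild-type to 0.528 and 0.818 TPM in Pax5-/- libraries, and thus in the direction opposite to the receptor for IL-18.

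Most ligands of these receptors were too low to be tested. Of 15 ligand genes, 3 were tested, of which 2 were lower and 0 higher (also 0 at an unadjusted p-value below 0.05, limma), and 8 were listed at 0 in both Pax5-/- libraries. The 15 do not include the IL-27 subunit gene *Ebi3*, which was counted with the receptor genes above and rose. *Il18* fell from 4.97, 2.72 and 8.2 TPM to 0.855 and 0.757 TPM (log2 fold change -2.04, adjusted p = 0.007, limma), and *Il15* fell from 1.97 to 3.33 TPM to 1.04 and 0.893 TPM (-1.16, adjusted p = 0.017). The remaining tested ligand, *Osm*, was at 9.16 to 13 TPM in wild-type and at 10 and 11 TPM in Pax5-/- libraries (-0.08, adjusted p = 0.76). *Il7*, which bone marrow stroma provides, was at most at 0.12 TPM in any wild-type or Pax5-/- library, and *Tslp* at most at 0.0918 TPM.

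Among the 11 kinases and STAT factors downstream, 1 was higher and 3 were lower. *Jak3*, which binds the γ chain (109, 109 and 91.5 against 148 and 147 TPM, marked as overlapping another gene), was higher by 0.52 on the log2 scale (adjusted p = 0.01, limma), and *Jak2* (-0.84), *Stat3* (-0.47) and *Stat5b* (-0.33, adjusted p = 0.049) were lower, the last of which did not pass after either rescaling. *Jak1*, the kinase that binds IL-7Rα and gp130, was at 94 to 113 TPM in wild-type and 83.5 and 78.2 TPM in Pax5-/- libraries (-0.34, adjusted p = 0.052), and *Stat5a* at 47.9 to 51.9 and 47.9 and 43.5 TPM (-0.13, adjusted p = 0.39). The list had a median of -0.20, against -0.12 for all genes tested.

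Among 18 feedback genes, 2 rose and 4 fell. *Socs1*, an inhibitor of JAK kinases that restrains interferon-γ signals, rose from 4.57 to 9.09 TPM to 22 and 21.8 TPM (log2 fold change 1.59, adjusted p = 0.004, limma), and *Socs2* from 27.4 to 37.8 TPM to 70.8 and 62.9 TPM (1.09). *Socs3*, which binds gp130, fell from 11.8 to 19.6 TPM to 5.49 and 6.62 TPM (-1.29, adjusted p = 0.005), and *Pias3* (-0.79), *Sh2b3* (-0.53) and *Pias1* (-0.46) were lower, of which *Sh2b3* did not pass after either rescaling. The median was -0.11.

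Of 13 adaptors and kinases that act behind the IL-18 receptor, 1 was higher and 4 lower in Pax5-/- cells, with a median log2 fold change of -0.36. *Irak1* rose from 38.6 to 47.6 TPM to 96.6 and 92 TPM (1.12, adjusted p = 0.00052, limma; marked as overlapping another gene). *Irak3*, an inhibitor of the Irak kinases, fell from 18.2, 23.5 and 20.8 TPM to 3.14 and 3.23 TPM (-2.52, adjusted p = 7e-05). *Traf6* (-0.74) and *Tollip* (-0.54) fell, and *Myd88* (-0.37, adjusted p = 0.029), the adaptor of the receptor, did not pass after either rescaling.

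Of 12 genes known as targets of IL-7 and STAT5 signaling, 4 rose and 4 fell, with a median log2 fold change of -0.14. The cell cycle gene *Ccnd2* (1.76), *Myc* (1.23), *Socs2* and the kinase gene *Pim1* (0.38) rose. The survival gene *Bcl2l1* (-2.48), *Ccnd3* (-1.69, marked as overlapping another gene), *Socs3* and the survival gene *Mcl1* (-0.52) fell.

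**Figure D5:**
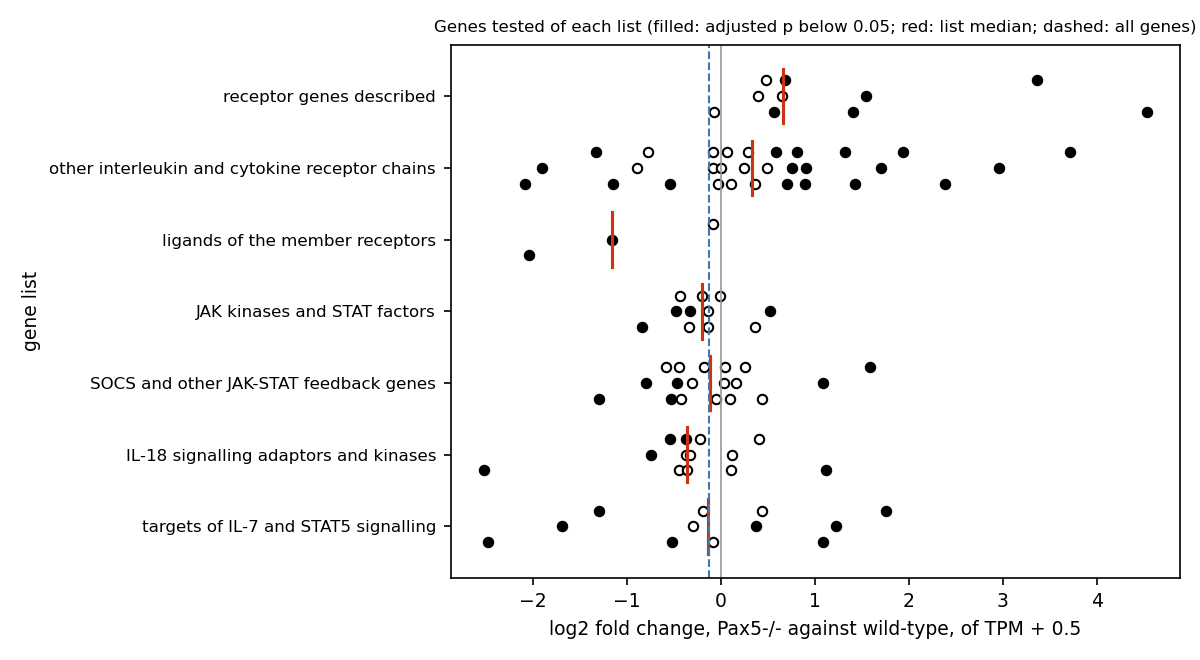
Log2 fold change of Pax5-/- against wild-type for the tested genes of each list (points, filled where the adjusted p-value is below 0.05), with the median of the list in red and the median of all genes tested as a dashed line. Among the 7 lists plotted, which leave out the marker lists, the 10 receptor genes have the highest median (0.67), and the ligands, with 3 genes tested, the lowest (-1.16). *Ebi3* is plotted with the other receptor chains and not with the ligands.

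For each receptor gene, the gene with the most similar profile over the 5 mm9 libraries was determined by the root mean square difference of centered log2(TPM + 0.5). *Il18rap* was closest to *Ociad2* (0.139) and *Il18r1* to *Hoga1* (0.0884). *Ifngr1* was closest to *Card6* (0.0461), *Il6st* to *Tbkbp1* (0.0444) and *Il2rg* to AI467606 (0.0165). *Il7r* and *Il21r* shared *Trim68* (0.0329 and 0.0246), whereas *Il4ra* was closest to *Lrp12* (0.0237), *Crlf2* to *Trp53i13* (0.0349) and *Il2rb* to *Zscan18* (0.0825). These differences describe the 5 libraries alone.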

How the data were processed

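RNA-seq values of 3 wild-type, 2 Pax5-/- and 3 Meox2-cre pro-B cell libraries were used. The authors deposited TPM per gene: reads were aligned to mm9 with TopHat 1.4.1a (wild-type and Pax5-/-) or to mm10 with STAR 2.4.2a (Meox2-cre) and counted with featureCounts 1.5.0, per the submitters' processing notes and the methods, which also removed ribosomal RNA reads. TPM sum to 1000000 in each library, so depth in reads is unknown, and strand of counting is not given in the sources used here. Entries were matched by the name before any added mark.

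The Pax5-/- libraries were tested against the wild-type libraries in limma 3.58.1 (R 4.3.3; lmFit, eBayes with trend) on log2(TPM + 0.5), keeping genes with a mean above 1 TPM in a genotype, with Benjamini-Hochberg adjustment over all 12066 genes. The script was tested on simulated data. Calls used an adjusted p-value below 0.05, or in addition a change beyond 3-fold at a mean above 5 TPM, without immunoglobulin and T cell receptor entries. The 9 chain ratios were compared by exact permutation over the 5 libraries. Tables made on different builds were not tested against each other. Python 3.11.15, pandas 2.3.3 and matplotlib 3.10.9 were used for tables and figures.

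The receptor genes and all lists were chosen with earlier results of these data known. Named genes were the 10 receptor genes, *Pax5*, sort markers, known partners, up to 4 called genes per list and direction with the largest change, the 2 highest markers of each other cell type, and 1 nearest profile per receptor gene. Alternatives were pseudocounts of 0.1 and 1, no filter or 5 TPM, eBayes without trend or robust, median ratios, quantile normalization, removal of immunoglobulin and T cell receptor entries, each library left out, and, for the calls, 2-fold, limma treat against 3-fold or the ratio of mean TPM. Values of 2 genes that this rule names are not reported here. Chain ratios without a pseudocount were added after seeing the data. The ChIP-seq samples of the series are not analysed here.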

Additional observations from a re-analysis of the deposited data

How the results depend on the processing

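The direction and call of *Il18rap*, *Il18r1*, *Ifngr1* and *Il2rg* were kept under all 14 alternatives. *Il7r* passed the test after rescaling by median ratios (log2 fold change 0.59, adjusted p = 0.035), and leaving out single libraries gave 0.26 (without wild-type replicate 1) to 0.65 (without wild-type replicate 3, adjusted p = 0.04). *Il4ra* no longer passed without a filter (0.57, adjusted p = 0.052), and ranged from 0.46 to 0.67 without single libraries. *Il6st* ranged from 1.08 to 1.60, and neither gene passed without Pax5-/- replicate 1 (adjusted p = 0.13 for *Il4ra* and 0.14 for *Il6st*) or replicate 2 (0.27 and 0.089). *Crlf2* reversed to 0.03 after median ratios and quantile normalization, and ranged from -0.24 to 0.03 without single libraries. The ratio of *Il2rb* to *Il2rg* reversed with a pseudocount of 0.1 (0.26) and with none (0.40), and ranged from -0.32 to 0.25 without single libraries. The ratio of *Il18rap* to *Il18r1* went from 1.16 on the log2 scale to 1.39 with a pseudocount of 1, 0.40 with 0.1 and -0.26 with none. *Il2rb* was not tested with the filter at 5 TPM. The count of receptor genes higher by the study's thresholds was 4 with a 2-fold threshold, and 1 to 3 without single libraries; it was 1 without Pax5-/- replicate 2, where the mean of *Il18r1* is below 5 TPM.

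The counts of the other lists depended more on single libraries. Lower among other receptor chains were 2 genes with the filter at 5 TPM and 3 after quantile normalization. Among ligands, 1 gene was higher without a filter and 1 lower with the filter at 5 TPM. Among kinases and STAT factors, 2 were higher after median ratios and 2 after quantile normalization, and 5 were lower with the filter at 5 TPM. Without single libraries, 5 to 13 other receptor chains were higher and 1 to 5 lower, 0 to 2 ligands were lower, 0 to 1 kinases and STAT factors were higher and 0 to 6 lower, 1 to 2 feedback genes were higher and 0 to 6 lower, 1 to 6 IL-18 signaling genes were lower, and 2 to 4 IL-7 and STAT5 targets were lower. Over all genes tested, 704 to 1977 were higher and 825 to 3233 lower, with 799 and 990 without Pax5-/- replicate 1 and 704 and 825 without replicate 2, where 1 library is left and is assumed to vary like the wild-type libraries. Beyond these constructions, the cause was not tested. The unknown depth limits what can be said of genes below 1 TPM, such as *Il2rb*. No paired analysis was possible because no replicate number in the labels links a wild-type to a Pax5-/- library.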

Other observations

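Beyond the genes above, and chosen after their values were seen, further receptor chains were higher in Pax5-/- cells. Both chains of the type I interferon receptor rose beside *Ifngr1*. *Ifnar1* was at 32.1, 38.5 and 41.2 TPM in wild-type and at 64.5 and 62 TPM in Pax5-/- libraries (log2 fold change 0.76, adjusted p = 0.0045, limma), and *Ifnar2* at 38.9, 51.5 and 53.8 and at 75.5 and 79.8 TPM (0.70, adjusted p = 0.011). *Il27ra*, which pairs with gp130 to bind IL-27, was at 14.5 to 17.9 and at 27.9 and 31.4 TPM (0.81, adjusted p = 0.0058; marked as overlapping another gene). *Il12rb1*, a chain of the IL-12 receptor, was at 2.64 to 4.5 and at 8.51 and 10.7 TPM (1.32, adjusted p = 0.0064), and *Il12rb2* was not tested, with at most 1.06 TPM in any wild-type or Pax5-/- library. *Il17ra* was the most abundant of the other receptor chains, at 259 to 312 TPM in wild-type and 326 and 303 TPM in Pax5-/- libraries, with a log2 fold change of 0.11 that did not pass the test (adjusted p = 0.49).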
